A study of Caenorhabditis elegans with 4 samples.

Results

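The histone genes his-35, his-41 and his-37 of Caenorhabditis elegans encode an H2A, an H2B and an H4 and lie side by side within 2949 bases of chromosome V. They were taken from the deposited gene counts by their WormBase identifiers, and they are 3 of the 65 core histone genes and 3 of the 46934 genes counted. They are the core histone genes whose counts were whole numbers in all 4 libraries: each of the other 62 had a fractional value in at least 1 library, the result of reads divided between near-identical copies. The 3 genes were chosen with their values known, because their counts were higher upon ATTF-6 depletion while those of most other core histone genes were lower. They were thus selected on the values of this contrast, and their difference between the groups is given as a description with no test.

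RNA was measured by stranded mRNA-seq, after removal of ribosomal RNA, in 4 libraries of whole adults. The 2 control libraries came from animals with the transgene wrdSi51, in which the mex-5 promoter drives the F-box protein TIR1 in the germ line, and their own ATTF-6 carried no degron. In the 2 ATTF-6 depletion libraries the animals had the same mex-5p::TIR1 transgene together with an attf-6 allele carrying GFP, a tev site and the auxin-inducible degron (GFP::tev::aid::attf-6), so that auxin directs degradation of the protein in the cells that make TIR1. All animals were kept at 20 °C and were moved to 4 mM auxin at the L4 stage, the controls included. Effects of the tag and of the depletion cannot be told apart. The libraries of a group are biological replicates per the study's methods, whereas its figure legends call them sequencing replicates. The labels have no word on separate cultures, so the spread given is that between 2 libraries. The sample titles call the libraries small RNA, whereas the protocol and the long transcripts counted are of mRNA-seq.

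An H2A and an H2B pair as 1 dimer, an H3 and an H4 as another, and these pairs build the protein core on which DNA is wound in the nucleosome. Most animal core histone genes are present in many copies, have no intron, and are expressed during DNA replication into mRNAs that end in a hairpin bound by the stem-loop binding protein rather than in a poly(A) tail. A smaller set of replacement histone genes has introns and is expressed independently of replication. In adult hermaphrodites the germ line holds the dividing cells and the oocytes, which are loaded with histone mRNA for the embryo, whereas the somatic cells do not divide. ATTF-6 is an AT-hook protein found mainly in germ nuclei of adults and also, per the study, in some somatic cells, where the mex-5 promoter is not meant to supply TIR1. The study examined its part in the expression of clustered genes, the histone, piRNA and SL1 genes among them.

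The 3 genes differ from nearly all other core histone genes in structure. In the Ensembl 115 annotation of WBcel235, his-35 (WBGene00001909, minus strand, 9544659 to 9545288), his-41 (WBGene00001915, plus strand, 9545536 to 9546264) and his-37 (WBGene00001911, plus strand, 9547105 to 9547607) each have 2 exons and 1 intron, of 132, 214 and 74 bases in that order. Their exons add up to 498, 515 and 429 bases, of which 381, 369 and 309 bases are coding, so that each gene also has annotated untranslated sequence. The encoded proteins are 127, 123 and 103 residues long. Of the 62 other core histone genes, 61 have 1 exon that is exactly as long as the coding sequence with its stop codon. The exception is his-57, an H2A gene for which up to 3 exons are annotated.

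The H2A gene his-35 and the H2B gene his-41 face away from each other, with 247 bases between their starts. That arrangement is the common one for this family. In 15 other head-to-head pairs of an H2A and an H2B gene the starts are 227 to 327 bases apart, with a median of 292. The H4 gene his-37 follows his-41 on the same strand after 840 bases and has no H3 gene beside it, unlike the H4 genes of 14 head-to-head H3 and H4 pairs (234 to 321 bases, median 255). The nearest H3 gene on chromosome V is his-17, 649.5 kb from his-37. The span of his-41 overlaps that of the next gene on its strand, C50F4.6, by 173 bases. That is 33.6% of the exon bases of his-41 if the overlap is all exon, which was not checked. Reads lying in both genes cannot be assigned to 1 gene. The counting options listed by the study name no setting for such reads. Both genes had whole counts in all 4 libraries, so splitting of such reads between them was not seen. The counts of both genes may be low. His-37 overlaps nstp-10 by 6 bases on the opposite strand, which strand-specific counting separates.

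The library totals on genes ranged from 23923423 to 32096525, and the chi-square per gene between replicates was 3.67 in the controls and 47.03 in the depletion libraries, so the depletion libraries differed more from each other. Counts were normalised to counts per 1000000 counts of a library (CPM) with edgeR's TMM factors, which lay between 0.949 and 1.022. Of 16591 genes tested with edgeR, 63% differed at an adjusted p under 0.05, with 30.9% higher and 32.1% lower upon depletion. Scaled to a list of 22 somatic marker genes instead, 1805 genes were higher and 7118 lower in place of 5120 and 5332, and DESeq2 gave 3426 and 5435. This somatic scaling moved the median log2 fold change of all genes by -0.56, and the DESeq2 and RLE size factors moved it by -0.13 and -0.12, so that the values below are relative to the TMM scale unless another is named. The mRNA of attf-6 itself was at 168.1 ± 7.22 CPM (SD, n = 2) in control and 113.4 ± 17.6 CPM in depletion libraries, a log2 fold change of -0.57 (adjusted p = 0.0042, edgeR; 0.056 without control replicate 2, with the spread then taken from the depletion libraries alone), although the degron acts on the protein.

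The H2A gene his-35 was the most abundant of the 3 in control animals. It had 40.2 and 37.8 CPM in the control libraries and 70.8 and 61.1 CPM in the depletion libraries. Both depletion libraries lay above both controls, and the lower of them was 1.52 times the higher control. For each of the 3 genes such separation goes with how they were chosen. The share of all genes with groups so separated is not given here. The means were 38.995 ± 1.64 and 65.96 ± 6.87 CPM (SD, n = 2), a ratio of 1.69 and a log2 fold change of 0.76 with a standard error of 0.11. The raw counts behind these values were 1308 and 1143 in the controls and 1606 and 1701 upon depletion, the depletion libraries having the smaller totals.

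The H2B gene his-41, its head-to-head partner, had the larger difference. Its values were 22.2 and 20.9 CPM in the controls and 53.05 and 44.3 CPM upon depletion. The groups did not overlap, and the lower depletion library was 1.996 times the higher control. The means of 21.6 ± 0.901 and 48.7 ± 6.19 CPM gave a ratio of 2.26 and a log2 fold change of 1.17 with a standard error of 0.12. The counts were 723, 632, 1203 and 1233, in the order control replicates 1 and 2 and depletion replicates 1 and 2.

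The H4 gene his-37 had 28.9 and 27.1 CPM in the controls and 76.7 and 41.1 CPM upon depletion. The groups again did not overlap, with the lower depletion library at 1.42 times the higher control, but the depletion libraries were 1.87-fold apart, against 1.16-fold for his-35 and 1.20-fold for his-41. The means were 27.98 ± 1.23 and 58.9 ± 25.2 CPM, a ratio of 2.11 and a log2 fold change of 1.07 with a standard error of 0.24. This size rests on 1 library, since the log2 fold change was 0.55 without depletion replicate 1 and 1.40 without depletion replicate 2. The counts were 940, 819, 1740 and 1144 in the same order.

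**Figure D1:**
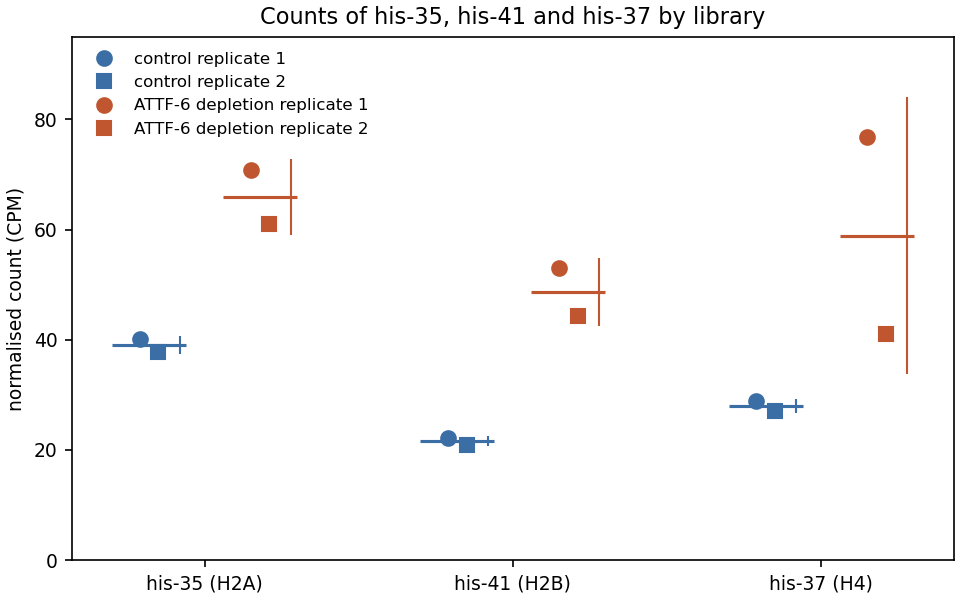
Normalised counts (CPM, vertical axis) of his-35, his-41 and his-37 in the 2 control (blue) and 2 ATTF-6 depletion (orange) libraries, with circles for replicate 1, squares for replicate 2, horizontal lines for the group means and vertical bars for 1 SD to each side. Both depletion libraries lie above both controls for each gene, which goes with the choice of the genes on this contrast. The depletion libraries of his-37, at 76.7 and 41.1 CPM, lie farther apart than those of the others.

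Summed over the 3 genes, the level was 91.2 and 85.9 CPM in the controls and 200.6 and 146.5 CPM upon depletion, a ratio of means of 1.96. The depletion libraries differed from each other mainly through his-37. Per kilobase of exon, which allows levels of different genes to be compared, his-35 stood at 80.6 and 76.0 CPM per kb in the controls, his-37 at 67.3 and 63.2, and his-41 at 43.1 and 40.6. Upon depletion his-37 was highest in replicate 1, at 179 CPM per kb against 142 for his-35, and his-35 was highest in replicate 2, at 123 against 95.8 for his-37, so these genes could not be ordered beyond their spread. His-41 stood at 103 and 86.0 CPM per kb upon depletion, the lowest of the 3 when all of its exon bases are counted. A calculation added after the data were seen divided by the 342 exon bases left when the whole overlap with C50F4.6 is taken as exon. His-41 was then at 64.9 and 61.2 CPM per kb in the controls, which overlaps the values of his-37. Upon depletion it was at 155 and 129.5, above his-35 in both libraries. Only the place of his-35 above both others in the controls thus held with either length of his-41.

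The proportions of the 3 genes to each other do not depend on how a library was scaled. Of the counts on the divergent pair, his-41 took 35.6% in both controls, with Wilson 95% intervals of 33.5 to 37.7% and 33.4 to 37.9%. It took 42.8% (41.01 to 44.7%) and 42.02% (40.3 to 43.8%) in the depletion libraries. The intervals of both depletion libraries lay above those of both controls. They cover the counting error alone and not the spread between libraries. Both genes were also selected on this contrast, so the intervals serve as description and not as a test. His-37 took 41.8% and 41.7% of the counts on his-37 and his-35 in the controls, and 52% and 40.2% upon depletion. The depletion libraries lay on either side of the controls, so this proportion had no common direction. The same held for his-37 against his-41, with 56.5% and 56.4% in the controls and 59.1% and 48.1% upon depletion.

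The size of the differences depended on the scaling, whereas their sign did not in any alternative run. With the somatic marker scaling the log2 fold changes were 0.20 (SE 0.12) for his-35, 0.62 (SE 0.13) for his-41 and 0.52 (SE 0.26) for his-37. The value of his-35 was then small against its error. With RLE size factors his-35 was at 0.64, and DESeq2 gave 0.62. Leaving out each library in turn gave 0.64 to 0.81 for his-35 and 1.03 to 1.25 for his-41.

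**Figure D2:**
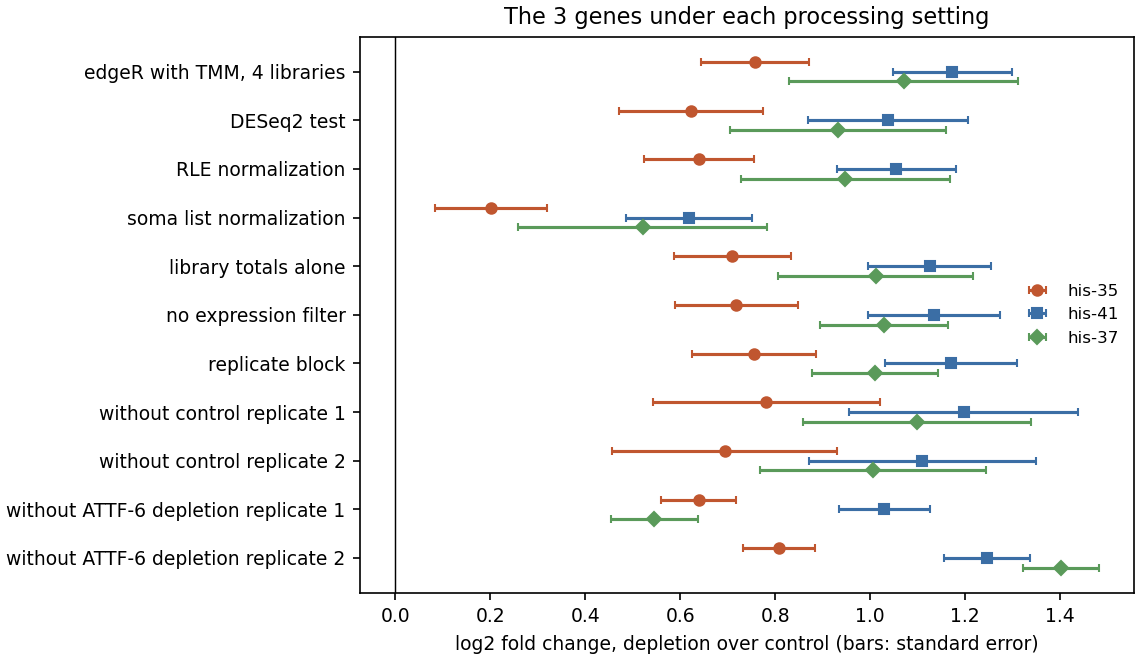
Log2 fold change, depletion over control, of his-35 (circles), his-41 (squares) and his-37 (diamonds) under each processing setting, with bars for the standard error of the fit. All points lie above 0, the lowest under the somatic marker scaling (0.20 for his-35), and his-37 moves most when a depletion library is left out (0.55 and 1.40).

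The other copies of the same histones were lower upon depletion. Summed without the 3 genes, which removes the division of shared reads within a class, 16 copies of H2A fell from 4579 ± 183 to 1258 ± 49.9 CPM, a log2 fold change of -1.87 (SE 0.14, adjusted p = 8.4e-06, edgeR). The 16 other copies of H2B fell from 6639 ± 163 to 2048 ± 13.3 CPM, a log2 fold change of -1.70 (SE 0.14, adjusted p = 1.3e-05, edgeR). The 15 copies of H3, a class with no gene at this locus, fell from 5352 ± 103.7 to 1272 ± 74.6 CPM, or by 2.08 on the log2 scale (SE 0.14, adjusted p = 6.0e-06, edgeR). The 15 other copies of H4 fell from 4067 ± 90.9 to 1337 ± 237 CPM, a log2 fold change of -1.61 (SE 0.16, adjusted p = 3.7e-05, edgeR). Each class kept its call under every alternative run.

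Of the 62 other core histone genes, 61 had enough counts to be tested; his-39, an H2B gene, had not. Of these 51 were lower and 0 higher (edgeR; also 0 higher at an unadjusted p under 0.05 and with DESeq2), which stands beside the background of 32.1% lower and 30.9% higher over all genes. Their median log2 fold change was -2.38 with a range of -3.78 to 0.06, while over all genes tested the median was 0.16 and the quartiles -0.83 and 0.80. Because near-identical copies shared reads, single copies are not independent and their own values are uncertain. By mean CPM over the 4 libraries the most abundant other copies per class were his-47 (H2A), his-58 (H2B), his-55 (H3) and his-46 (H4). Their CPM values were 1054.9, 1600.6, 1230.7 and 849.3 in control replicate 1. In that library another copy of H2B (1600.8 CPM) and another of H4 (850.3 CPM) were slightly higher.

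The 10 copies that were not called all lay on chromosome II. They were the H2B genes his-11, his-15 and his-44, the H3 genes his-9, his-13, his-25 and his-42, and the H4 genes his-10, his-14 and his-26. All 13 copies of that chromosome had log2 fold changes between -0.62 and 0.06, and the 48 tested copies elsewhere had at most -1.46. His-35, his-41 and his-37, at 0.76, 1.17 and 1.07, were above the highest of these 61, which is what they were selected for. The calls on chromosome II depended on the setting, and those made with 1 depletion library take their spread from the controls alone. With RLE size factors or DESeq2 the first 6 of the 7 H2B and H3 genes just named were lower (edgeR and DESeq2 adjusted p under 0.05), and also in the fits with 1 depletion library, and his-42 was lower only under the somatic scaling. His-10, his-14 and his-26 changed sign: without depletion replicate 1 their log2 fold changes were -0.24, and without depletion replicate 2 they were 0.26. Both fits had an adjusted p under 0.05 in edgeR, in opposite directions, and so restate the difference between the depletion libraries.

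**Figure D3:**
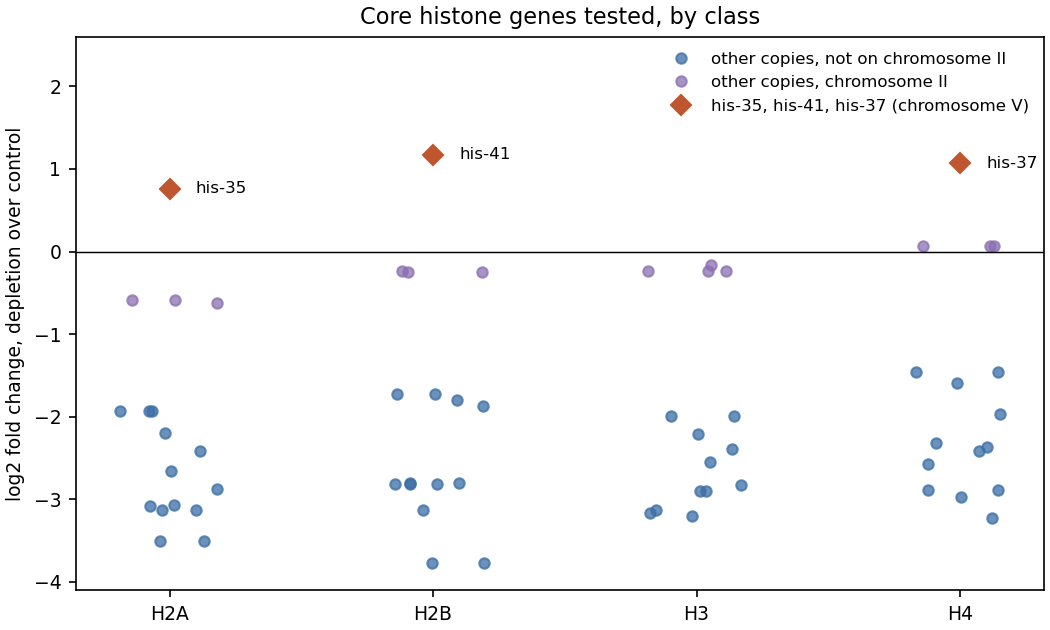
Log2 fold change, depletion over control, of the 64 core histone genes tested, by class, with his-35, his-41 and his-37 as diamonds, copies on chromosome II in purple and other copies in blue; points are spread sideways only for legibility. The 3 diamonds lie above 0 at 0.76 to 1.17, the copies on chromosome II between -0.62 and 0.06, and the remaining copies at -1.46 or below.

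The share of each class that came from this locus was higher upon depletion, as follows from the selected genes and the lower class sums together. His-35 held 0.846% and 0.843% of all H2A counts in the controls and 5.19% and 4.76% upon depletion, a ratio of mean shares of 5.89. His-41 held 0.328% and 0.320% of H2B counts in the controls and 2.51% and 2.13% upon depletion, a ratio of 7.17. His-37 held 0.694% and 0.673% of H4 counts in the controls and 4.85% and 3.40% upon depletion, a ratio of 6.04. These shares use raw counts and are free of the scaling between libraries.

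**Figure D4:**
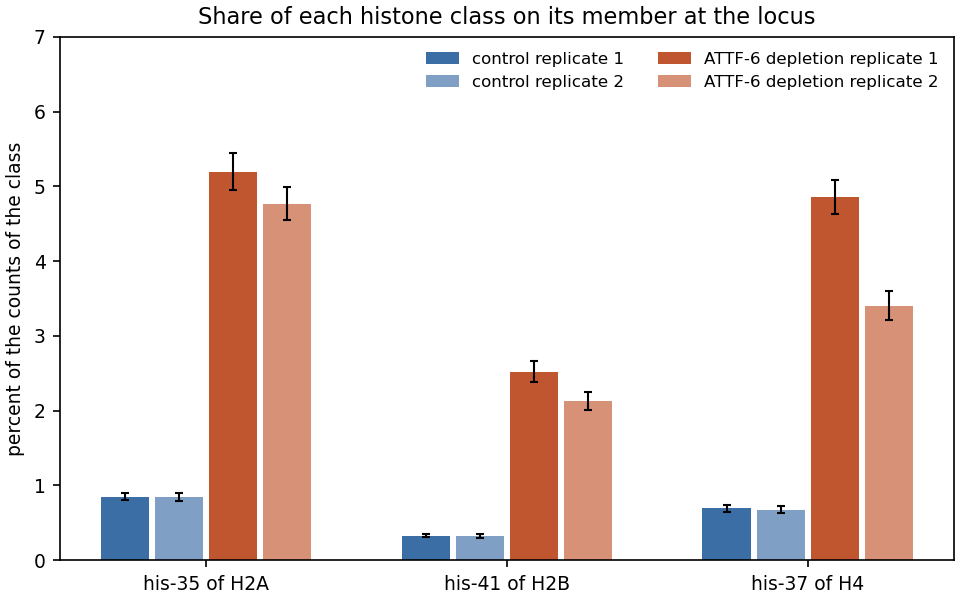
Percent of all counts of H2A, H2B and H4 that fell on his-35, his-41 and his-37, in each control (blue) and ATTF-6 depletion (orange) library, with Wilson 95% intervals for counting error. No control share exceeds 0.846%, and the depletion shares run from 2.13% for his-41 to 5.19% for his-35.

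Ranked per kilobase of exon among the 65 core histone genes, his-35 was 58th in both controls and 28th and 27th upon depletion, his-41 was 63rd in both controls and 32nd in both depletion libraries, and his-37 moved from 62nd and 60th to 26th and 31st. Most other copies stood above them in control animals, and fewer did upon depletion. With the unshared bases alone his-41 was 63rd and 61st in the controls and 27th in both depletion libraries. Compared with all 15307 protein-coding genes tested, however, the 3 genes were well expressed in controls too, at the 92.0th and 91.5th percentile for his-35, the 83.9th and 82.5th for his-41 and the 90.3rd and 89.5th for his-37. Upon depletion they lay between the 93.8th percentile (his-41) and the 96.3rd (his-37). With its unshared bases alone his-41 was at the 89.9th and 89.1st percentile in the controls.

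The ratio of depletion replicate 1 to replicate 2, in CPM, was 1.87 for his-37 and had a median of 1.34 over the 15 other copies of H4, with a range of 0.955 to 1.87 and 6.67% of them above his-37. Over the 16 other copies of H2A the median was 1.15 and the range 0.926 to 2.17, with 12.5% above his-37. The medians for H2B and H3 were 1.11 and 1.08, with no copy above 1.22, and that over all genes with counts in replicate 2 was 1.00, with quartiles of 0.848 and 1.23. Of those genes 4.48% had a ratio above that of his-37. These are ratios of 2 libraries and have no error of their own.

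Around the locus, most other genes were lower upon depletion. Within 10 kb of the 3 genes lie 11 others, of which 9 could be tested, and 7 were lower, 0 higher (edgeR; 1 at an unadjusted p under 0.05 and 0 with DESeq2) and 2 not called, against 32.1% lower and 30.9% higher over all genes. On the his-35 side, mdf-1, which encodes a spindle checkpoint protein and begins 432 bases beyond the end of his-35, had 106.5 and 101.9 CPM in the controls and 42.7 and 35.7 upon depletion, a log2 fold change of -1.41 (adjusted p = 1.7e-05, edgeR). Farther out, C50F4.16 was at -1.11, C50F4.12 at -2.54, C50F4.4 at -0.96 and tag-329 at -2.70 on the same log2 scale. All had an adjusted p of at most 0.0044 (edgeR). On the his-37 side, nstp-10, a gene named for nucleotide sugar transport, was at -0.54 (adjusted p = 0.0033, edgeR) and ehbp-1 at -1.11 (adjusted p = 2.4e-05, edgeR).

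The 2 genes not called were C50F4.6 and rgef-1. C50F4.6, which lies between his-41 and his-37 and overlaps his-41, had 8.63 and 9.17 CPM in the controls and 13.9 and 10.5 CPM upon depletion. Its log2 fold change of 0.45 (SE 0.19) had an adjusted p of 0.061 in edgeR. The value was 0.23 without depletion replicate 1 and 0.60 without depletion replicate 2, the latter with an adjusted p of 0.0026 in edgeR. Rgef-1, which encodes a neuronal guanine nucleotide exchange factor, was at 0.52 (adjusted p = 0.081, edgeR), at 0.68 without depletion replicate 1 (adjusted p = 0.016, edgeR) and at 0.26 without depletion replicate 2. In these fits with 1 depletion library the controls alone give the spread, so their p-values leave out the difference between the depletion libraries. Both values were slightly negative under the somatic scaling. C50F4.17 and C50F4.18, short genes on the minus strand beyond nstp-10, had at most 1 count in any library.

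**Figure D5:**
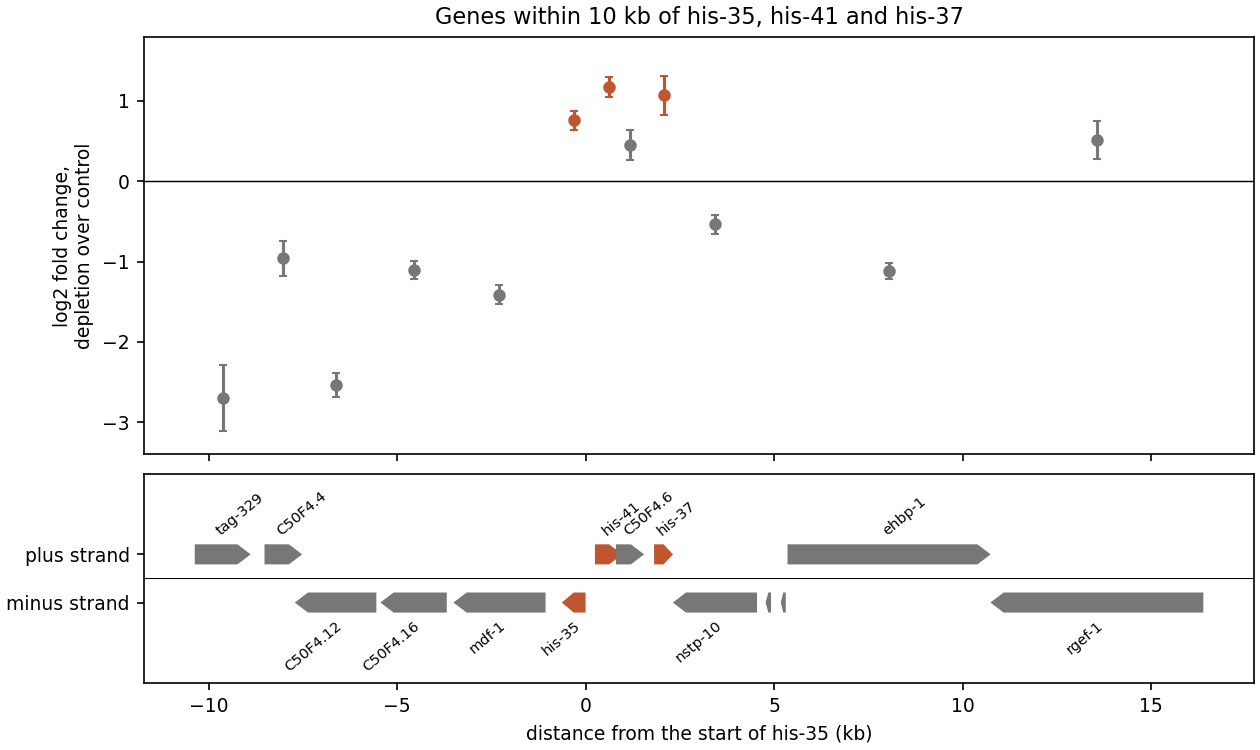
Log2 fold change, depletion over control, with its standard error (upper panel) for the genes within 10 kb of the locus, placed by the distance of their middle from the start of his-35, above a map of the genes by strand (lower panel), with his-35, his-41 and his-37 in orange; the 2 genes with no label and no point had at most 1 count. The 3 histone genes lie at 0.76 to 1.17, C50F4.6 between them at 0.45, and 7 of the 9 other tested genes lie below 0, down to -2.70 for tag-329.

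Among 9 genes for H3 variants and H2A.Z, 7 were tested, of which 2 were higher and 5 lower, beside 30.9% higher and 32.1% lower over all genes. The higher ones were the H3.3-type genes his-70, from 2.77 ± 0.168 to 5.71 ± 0.154 CPM with a log2 fold change of 1.04 (adjusted p = 0.0027, edgeR), and his-71, from 17.4 ± 0.831 to 31.7 ± 5.84 CPM with 0.86 (adjusted p = 0.00099, edgeR). Both log2 fold changes, on the TMM scale, lay between those of his-35 and his-37. The values of these 2 genes under other settings are not given here, and the somatic scaling moved the median of all genes by -0.56. His-72, another H3.3 gene, was lower (-1.03), as were htz-1, the H2A.Z gene (-2.26), hcp-3, the centromeric H3 (-2.04), cpar-1, its relative (-1.71), and his-74 (-1.78). His-73 was at 0 in all 4 libraries.

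Among 9 linker histone genes, whose products bind the DNA between nucleosomes, 2 were higher and 7 lower, beside the same shares over all genes. The higher ones, on the TMM scale, were hil-1, with a log2 fold change of 1.51 (SE 0.25), and hil-8, with 1.19 (SE 0.40). Hil-8 had few counts, with 19 and 21 in the controls and 32 and 42 upon depletion. The largest decreases were those of hil-7 (-4.12, from few counts), his-24 (-3.07) and hil-3 (-2.86), and hil-4, the most abundant, was at -2.003. Of 10 genes for hairpin binding and histone chaperones 10 were lower, beside 32.1% over all genes, among them hira-1, a chaperone of the replication-independent H3.3 (-1.37). They also included cdl-1, the stem-loop binding protein (-2.19), asfl-1, an H3 and H4 chaperone (-1.73), chaf-1, a subunit of the chromatin assembly factor (-1.72), and nap-1, an H2A and H2B chaperone (-0.89). All 20 S phase genes listed were lower as well, with the same 32.1% beside them and a median of -1.92, mcm-7 of the replicative helicase at -2.56 being the most abundant.

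The makeup of the RNA differed between the groups in the same libraries. The calls per marker list stand beside 30.9% higher and 32.1% lower over all genes. Of 22 somatic marker genes 13 were higher, 1 lower and 8 not called, with a median log2 fold change of 0.48 and quartiles of 0.27 and 0.65, and their summed level was 13269 and 13158 CPM in the controls against 19762 and 21059 upon depletion. All 19 germ cell markers were lower (median -1.28, summed 3949 and 3972 CPM against 1385 and 1649), and all 15 oocyte markers (median -2.46, summed 11142 and 11156 CPM against 1815 and 2252). Of the 12 early embryo markers 8 were tested and 6 were lower (median -2.70). All 10 sperm markers were higher (median 1.34), with summed levels of 90.0 and 86.8 CPM in the controls and 171.5 and 196.6 CPM upon depletion. By imaging, the study reported germline atrophy upon depletion of ATTF-6 from the L4 stage. In counts of whole animals, fewer cells of a type and less RNA per cell cannot be told apart.

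The 3 genes stood above the upper quartile of the somatic list, at 0.76, 1.17 and 1.07 against 0.65, and below the median of the sperm list. The highest somatic marker, at 0.95, lay above his-35 and below his-41 and his-37. His-35 was also below the upper quartile of all genes tested, 0.80. The 3 genes were selected for high values, so their standing against a quartile is not a result about them. The most abundant markers were unc-54, a body wall myosin (0.68), gld-1 of the germ line (-2.28), cbd-1 of the eggshell (-2.64), gsp-3, a sperm phosphatase (0.42), and pha-4 of the embryonic and adult pharynx (-0.04, not called). Of these calls, that of unc-54 was lost under the somatic scaling. Unc-54 is on the list that sets this scaling, which by design draws the list toward 0. That of gsp-3 was lost under RLE factors, DESeq2 and the somatic scaling. Both calls were also lost without either control, where the depletion libraries alone give the spread. The part of these shifts in the values of his-35, his-41 and his-37 was not tested.

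The genes nearest to each of the 3 in level and profile were found as the root mean square difference of log2 CPM over the 4 libraries, among 15046 protein-coding genes. Nearest to his-35 were T03G6.3 (0.037), ugt-58 (0.052) and acs-22 (0.056), nearest to his-41 were slc-17.6 (0.078), K07C11.7 (0.080) and sma-10 (0.081), and nearest to his-37 were inx-16 (0.11), ttr-48 (0.11) and glrx-10 (0.12). Many genes resembled each of the 3 more than its neighbours did. His-37 was the 437th and his-41 the 935th nearest gene to his-35, his-37 the 229th and his-35 the 800th to his-41, and his-41 the 138th and his-35 the 232nd to his-37. These ranks follow both level and difference, over 4 libraries that share their scaling factors.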

How the data were processed

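RNA of whole adults was sequenced in 2 control and 2 ATTF-6 depletion libraries, grouped by the sample labels. According to the study's methods the authors trimmed reads with Trim Galore, aligned them to WS279 with STAR, allowing up to 10 alignments, removed pairs with 1 aligned mate, and deposited expected counts per gene from stranded featureCounts, each multi-mapped read being split over its alignments; tool versions are not given in the sources used here. Dividing shared reads gives fractional values to near-identical histone copies and makes their single values uncertain. Reads with more than 10 alignments are missing from the counts. The 181 transposon rows were left out.

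Of 46934 gene identifiers, 46924 had an entry in the Ensembl 115 annotation, and shared histone symbols (36 identifiers) were resolved by RefSeq coordinates of the same assembly, WBcel235. Expected counts were rounded to whole numbers and fitted with edgeR 4.0.16 in R 4.3.3, with filterByExpr (minimum count 10, minimum total 15), TMM, a prior count of 0.125, the two-sided quasi-likelihood F-test and Benjamini-Hochberg adjustment over 16591 genes at 0.05. DESeq2 1.42.0, other scalings, no filter, a replicate block and fits without each library were alternatives. The fits were also run on simulated data with few changed genes and the same spread in both groups. These data differ on both points, so that run does not vouch for the calls given here. A value was taken as whole within 1e-09. The level of his-41 per kb over unshared exon bases was added after the data were seen. It takes the overlap from the gene spans and treats all of it as exon. The genes named are the 3 genes, attf-6, genes within 10 kb, the top copy and uncalled copies of each class, up to 3 genes of each related list by size of change, the 3 nearest profiles per gene, and the top gene of each marker list; hil-1, hil-8, his-70, his-71, his-72, cpar-1 and hira-1 were added after their values were seen. The members and all lists were chosen with earlier results of these data known. No genome or sequence table was used, so no sequence is shown.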

Additional observations from a re-analysis of the deposited data

How the results depend on the processing

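His-35, his-41 and his-37 stayed higher upon depletion in all alternatives run, and the sums of the other copies of H2A, H2B, H3 and H4 stayed lower with their calls. The sizes depended on scaling. His-35 was at a log2 fold change of 0.62 with DESeq2, 0.64 with RLE factors and 0.20 (SE 0.12) with the somatic scaling. With that last scaling his-41 was at 0.62 (SE 0.13) and his-37 at 0.52 (SE 0.26), and 1805 genes were higher. Without each library in turn, his-35 ran from 0.64 to 0.81, his-41 from 1.03 to 1.25 and his-37 from 0.55 to 1.40. The cause was not tested. Under the somatic scaling gsp-3 (-0.14), C50F4.6 (-0.10) and rgef-1 (-0.044) turned negative. The H4 copies his-10, his-14 and his-26, at 0.06 each, were at -0.0752, -0.0757 and -0.0731 with DESeq2, at -0.0580, -0.0585 and -0.0559 with RLE factors and at -0.49 each with the somatic scaling. Without each library in turn, these H4 copies ran from -0.24 to 0.26 and pha-4 from -0.26 to 0.11. Fits that leave out a library take the spread from the other group alone. The exon length used for his-41 moved its level per kb from 41.9 to 63.04 in the controls and from 94.5 to 142.3 upon depletion. The replicate numbers are shared by the groups only as numbers, the correlation of the deviations of same-numbered libraries being -0.02. With the replicate block 5317 genes were higher and 5432 lower, and his-35, his-41 and his-37 were at 0.76, 1.17 and 1.01. With 2 libraries per group, the spread of his-37 upon depletion cannot be narrowed.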
